A study of Mus musculus with 216 samples.

Results

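Homeobox genes of the Hox, Dlx, Lhx, Nkx, Irx and sine oculis (Six3 and its relatives) families were compared with the H3K9me3 domains that the study sorted by how they decay once H3K9 methyltransferases are removed. The members were all protein-coding genes of GENCODE vM21 whose symbol is Hoxa, Hoxb, Hoxc, Hoxd, Dlx, Lhx, Nkx, Irx or the sine oculis family prefix followed by a digit, which gave 79 of 21938 protein-coding genes on chromosomes 1 to 19, X and Y. A domain belonged to a member when it overlapped, by at least 1 bp, the gene body plus 1 kb upstream. This gave 32 of the 42890 domains on those chromosomes. Coordinates are on mm10 and counted from 1.

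The cells were dTKO, a single line of mouse embryonic stem cells that carries floxed alleles of Suv39h1 (Suv39h1fl/fl) and Setdb1 (Setdb1fl/fl) and is Suv39h2-/-. The medium was given dTAG13 (0.5 µM) and auxin (100 µg/ml), small molecules used to direct tagged proteins to degradation, and H3K9me3 was followed by ChIP-seq at 0, 1, 3, 12, 24 and 48 h. The Suv39h2-/- genotype and the treatment label are shared by all times, 0 h included. H3K9me3 was sequenced in 54 runs, 9 at each time, from 3 numbered repeats with 3 runs each. The table used here holds 1 decay class per domain over the whole time course, namely fast, intermediate, slow or residual. It has no level per time or repeat, so the values below carry no error between cultures and the depth behind each class is unknown. The sources used here do not place residual in the order of decay, and the table draws slow and residual domains in the same colour. Of 10 stem cell genes listed to check the labelled cell type, 1 had a domain (Esrrb, with 2 intermediate domains), but domains do not measure expression, so the cell type itself was not checked.

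Homeobox proteins bind DNA through a helical domain, the homeodomain, and set the identity of body regions and organs in the embryo. Hox genes lie in 4 clusters and are numbered by paralogue group, with low numbers used toward the head and high numbers toward the tail. Dlx genes pattern the forebrain, jaw and limbs, Lhx genes the nervous system and pituitary, Nkx genes the heart, gut, lung and nervous system, sine oculis family genes the eye, kidney and muscle, and Irx genes the heart and neural tube. In embryonic stem cells such genes are mostly silent and are known above all as targets of Polycomb repression, marked by H3K27me3. H3K9me3 is better known from repeats and zinc finger gene clusters, and it is written by the Suv39h and Setdb1 enzymes.

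Where homeobox genes carried an H3K9me3 domain, it was most often of the residual class. Of the 32 domains, 21 were residual (65.6%), 6 intermediate (18.8%), 4 slow (12.5%) and 1 fast. Over the 10497 domains on any protein-coding gene, 9.02% were residual, 67.2% intermediate, 20.4% slow and 3.39% fast. Over all domains 4.57% were residual. For genes under 10 kb the residual share was about the same in homeobox members, at 13 of 20 domains (65%), but higher on protein-coding genes, at 27.3%. With chromosomes 8 and 11 also left out, it was 2 of 9 (22.2%) in such members, against 19%. Members with no domain were the majority, 51 of 79 (64.6%). The remaining 28 (35.4%) had at least 1, against 24.3% of all protein-coding genes. A residual domain lay on 20 members (25.3%), against 3.56% of protein-coding genes. An intermediate domain lay on 7 members (8.86%), against 17.9%, a slow one on 4, against 7.25%, and a fast one on 1, against 1.57%. The residual domain was the sole class on 17 of the 20, and 8 members had domains of other classes alone. Residual domains were found in 8 of the 9 families, all but the sine oculis family. The members are not independent observations, because neighbouring genes of a cluster share domains and surroundings: 3 domains lay on a pair of members.

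**Figure D1:**
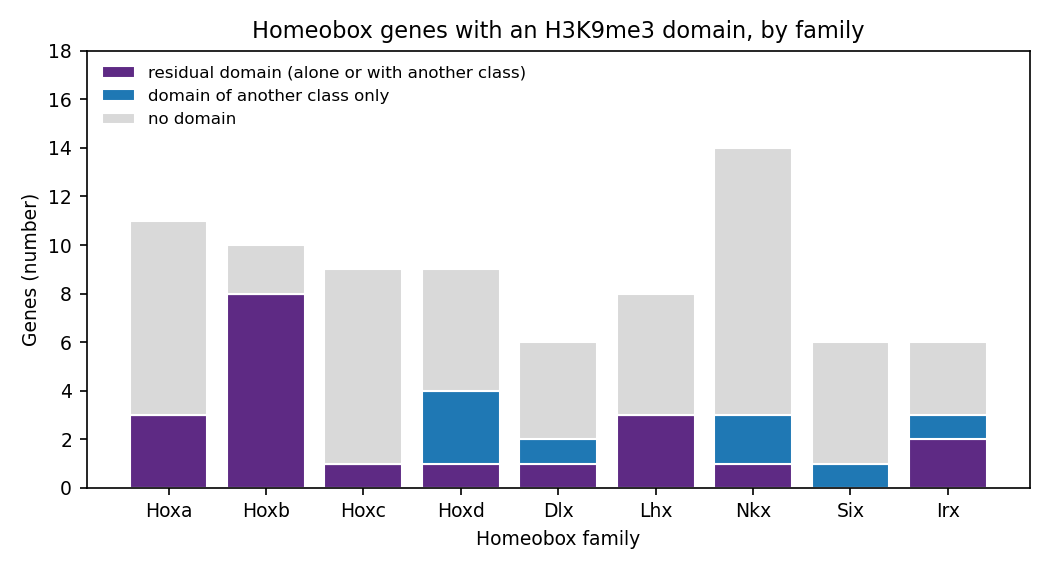
Number of genes in each homeobox family (vertical axis) with a residual domain, with domains of another class alone, or with no domain. Hoxb stands out with 8 of 10 genes on residual domains, while 8 of 11 Hoxa and 8 of 9 Hoxc genes have no domain.

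Position on chromosomes 8 and 11 moved with this result. Residual domains are frequent on those chromosomes in general, where 12.8% of protein-coding genes have one. They hold 17 of the 79 members, the Hoxb cluster among them, and 13 of these 17 had a residual domain, with 14 domains in all and none of another class. Of the domains on protein-coding genes of these chromosomes, 29.4% were residual. On chromosome 11, 10 of 13 members had a residual domain, against 12.9% of protein-coding genes there. On chromosome 8 it was 3 of 4 members, against 12.6%. Among the 62 members on other chromosomes, 15 had a domain (24.2%), close to the 23.6% of protein-coding genes outside chromosomes 8 and 11. These shares were not matched for gene length. Among genes under 10 kb outside these chromosomes, 8 of 47 members had a domain (17.0%), against 8.25%. Residual domains lay on 7 of these 62 members (11.3%), against 2.27%. They made up 7 of 18 domains (38.9%), against 5% of the 8766 domains on coding genes outside chromosomes 8 and 11. With genes under 10 kb alone, the shares outside these chromosomes were 2 of 9 domains (22.2%) for members, against 19% of 552 domains. Most of that gap was thus absent among short genes, but not among long ones. Members of 30 kb or more all lay outside these chromosomes, and 5 of their 8 domains were residual (62.5%). On protein-coding genes of that length on any chromosome it was 6.83%. The domains of Hoxc5 and Lhx4 and the residual one of Lhx2 are of uncertain assignment. By chromosome, the 7 members were 3 of 13 on chromosome 6 (2.16% of coding genes there), 2 of 16 on chromosome 2 (1.9%), 1 of 2 on chromosome 1 (3.73%) and 1 of 9 on chromosome 15 (2.68%). The part of the chromosomes in the result was not tested beyond these values.

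**Figure D2:**
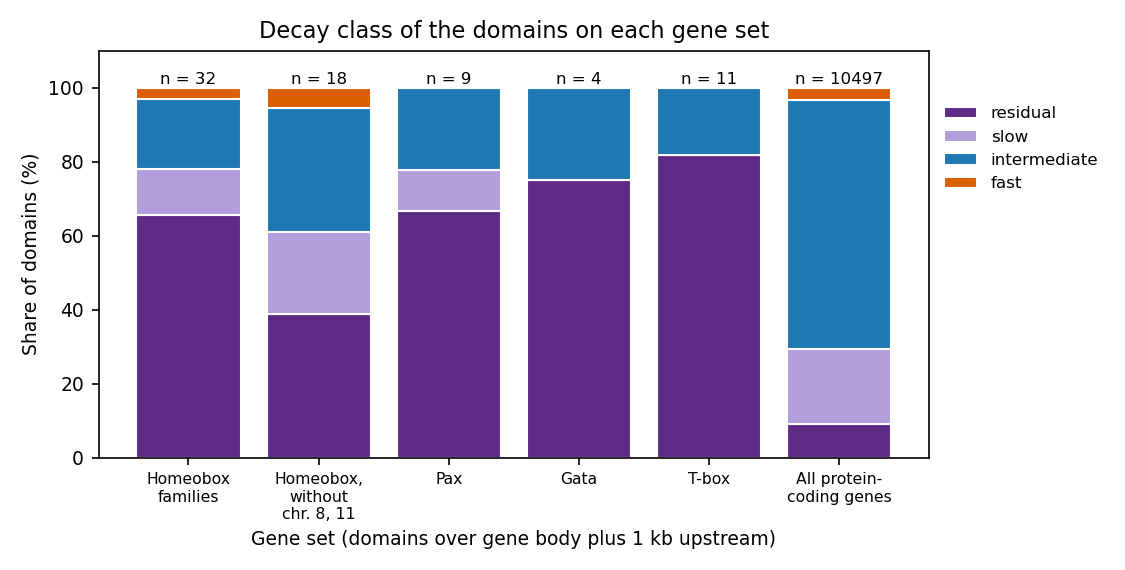
Share of domains (percent) in each decay class for the homeobox families, the same without chromosomes 8 and 11, the Pax, Gata and T-box families, and all protein-coding genes; n is the number of distinct domains. Residual domains make up 65.6% in the homeobox families and 38.9% without chromosomes 8 and 11, against 9.02% over all protein-coding genes.

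In 14 of the 79 members a domain covered the part of the gene that encodes the core of the homeodomain, the helix that reads DNA. They were among the 17 members with any coding base in a domain. The count thus does not set the core apart from the rest of the coding sequence. This core was located by script in the longest coding transcript as the codons for tryptophan, phenylalanine, any residue and asparagine, and all 79 members had it. The domain was residual in 8 of the 14, intermediate in 4 (Hoxd4, Hoxd12, Dlx5 and Nkx2-1) and slow in 2. Of all domains on members, 21 of 32 were residual. The sequences of 6 of the 8 residual cases are shown because they give the DNA of the core in the most frequent class. Each is the coding strand, 5′ to 3′, read from GRCm38 within 1 coding exon, with up to 45 bases on either side of the 12 capital bases that encode the core. For Nkx6-3 the domain ends within the printed stretch and holds its first 19 bases alone.
Irx3, chr8:91800481-91800582, minus strand: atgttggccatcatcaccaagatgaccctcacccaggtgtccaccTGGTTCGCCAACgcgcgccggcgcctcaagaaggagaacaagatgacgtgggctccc
Irx6, chr8:92677338-92677439, plus strand: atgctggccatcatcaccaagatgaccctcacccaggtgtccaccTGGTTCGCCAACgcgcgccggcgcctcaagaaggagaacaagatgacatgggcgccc
Hoxb9, chr11:96274755-96274856, plus strand: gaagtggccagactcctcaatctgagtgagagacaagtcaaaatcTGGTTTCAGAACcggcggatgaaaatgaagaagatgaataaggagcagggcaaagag
Dlx4, chr11:95141404-95141469, minus strand: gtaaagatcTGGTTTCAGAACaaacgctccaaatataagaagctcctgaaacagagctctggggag
Lhx1, chr11:84520390-84520449, minus strand: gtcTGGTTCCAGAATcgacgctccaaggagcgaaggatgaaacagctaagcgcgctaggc
Nkx6-3, chr8:23157582-23157641, plus strand: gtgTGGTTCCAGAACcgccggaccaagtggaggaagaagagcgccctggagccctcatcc

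The printed Irx3 and Irx6 stretches were identical at 99 of 102 bases, whereas Irx3 and Hoxb9 shared 49 of 102. Despite this likeness in the homeobox, the domains as a whole were nearly unique in the genome. Of 31-mers read every 100 bp, 93.9% were found once in the Irx3 domain and 98.0% in the Irx6 domain. For Nkx6-3 the domain ended inside the homeobox exon and held 19 of its 231 coding bases, while it held all coding bases of that exon for Irx3, Irx6, Hoxb1, Hoxb9, Dlx4 and Lhx1.

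The Hoxb cluster on chromosome 11 carried more domains than the other Hox clusters. From Hoxb13 to Hoxb1 (96194316 to 96368256, 174 kb), 29.4% of the bases lay in 11 domains, 10 residual and 1 intermediate. Domains covered 7.25% of the whole chromosome. The 9 domains on Hoxb genes were residual throughout, with gaps of 2.7 to 12.9 kb between them. Hoxb1, a gene of the hindbrain, lay entirely inside a domain of 9.9 kb (96365701 to 96375600). Hoxb2 had 65.3% of its body in a domain of 2.4 kb (96350401 to 96352800) that contains a start of the gene. Hoxb3, with a long gene body of alternative transcripts, had 3 domains (96326701 to 96331800, 96334501 to 96340500 and 96343201 to 96346200), and the last of them held 84.9% of its coding bases.

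Farther along the cluster the residual domains lay on starts, introns and the space between genes. A domain of 12 kb (96305401 to 96317400) ran from the end of Hoxb5 to 867 bp before the start of Hoxb4 and held no Hoxb coding base. Domains of 1.5 kb at Hoxb6 (96296701 to 96298200) and 1.8 kb at Hoxb7 (96287401 to 96289200) also held none. The longest domain on any member, 14.4 kb (96262501 to 96276900), covered the whole of Hoxb9, a gene of the trunk. Within the cluster Hoxb8 had no domain and lay 2.09 kb beyond the nearest, and Hoxb13, set apart from the rest, lay 3.72 kb from one; both nearest domains were residual.

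The other 3 clusters had fewer domains, with a larger share of bases covered than their chromosome in Hoxa and Hoxd and a smaller one in Hoxc. In Hoxa on chromosome 6 (52155590 to 52260880), 11.1% of bases lay in 4 domains, against 6.3% of the chromosome. Hoxa10, known for its role in the uterus and the skeleton, had a residual domain of 4.5 kb (52233901 to 52238400) over 78.2% of its coding bases. A second residual domain of 2.1 kb (52241101 to 52243200) started in the upstream window of Hoxa10 and reached into the gene body of Hoxa11. It covered 29.6% of the Hoxa11 body and none of its coding bases. The third was 1.2 kb long (52180801 to 52182000), inside the long gene model of Hoxa3 and 1.85 kb downstream of one of its starts. The last of the 4, intermediate, lay between Hoxa11 and Hoxa13 on no member. The remaining 8 Hoxa genes had none, and the nearest domain was residual for 7 of them.

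In Hoxc on chromosome 15 (102921103 to 103036852), 1.04% of bases lay in a domain, against 5.82% of the chromosome. The sole Hoxc domain was residual, 1.2 kb long (102985501 to 102986700), and was counted for Hoxc5 because a long transcript of that gene spans it, so its assignment is uncertain. It lay 401 bp beyond the window of Hoxc9, and the nearest start, downstream of it, was that of Hoxc8.

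Hoxd on chromosome 2 was the mixed cluster (74668310 to 74765142, 20.8% of bases in domains, against 4.95% of the chromosome). Hoxd12, a gene of the digits, lay in an intermediate domain of 4.2 kb (74673301 to 74677500) that held all its coding bases. Hoxd4 lay in an intermediate domain of 5.4 kb (74723701 to 74729100), which also counted for the overlapping gene model of Hoxd3, where its assignment is uncertain. Hoxd3 had a residual domain of 3 kb as well (74743501 to 74746500), over 55.7% of its coding bases. Hoxd1 lay in a slow domain of 7.5 kb (74763301 to 74770800) over 79.8% of its coding bases. A further residual domain, 5.7 kb long (74750401 to 74756100), lay between Hoxd3 and Hoxd1 on no member. Hoxd8, Hoxd9, Hoxd10, Hoxd11 and Hoxd13 had none.

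**Figure D3:**
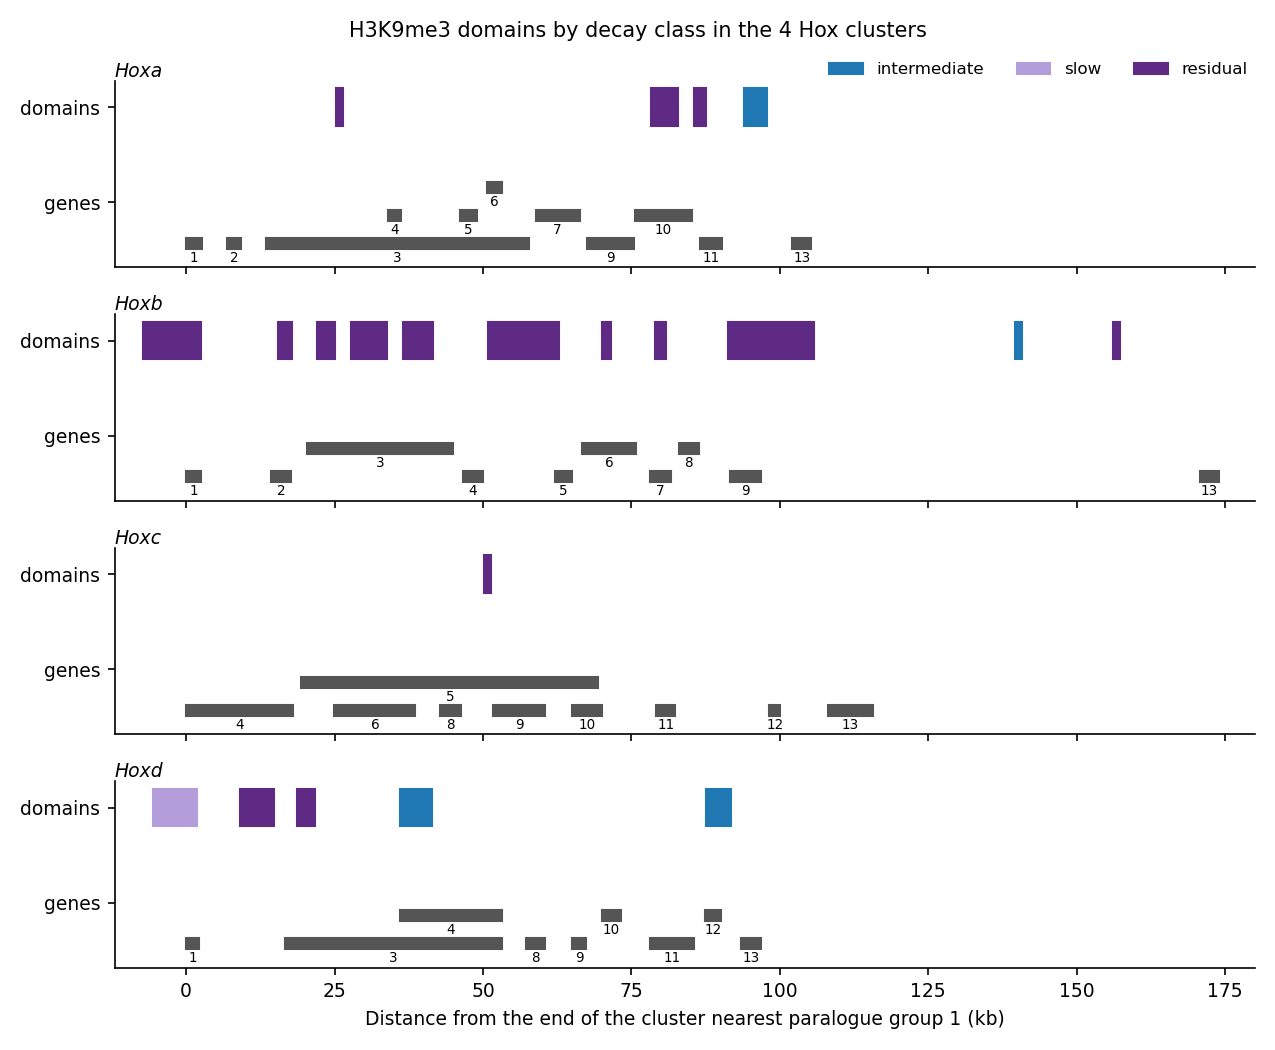
Domains (upper row, coloured by decay class) and genes (lower rows, numbered by paralogue group) of the 4 Hox clusters, drawn from the end nearest paralogue group 1, in kb. Hoxb has 10 residual domains and 1 intermediate one, Hoxc a single residual domain, and Hoxd domains of 3 classes.

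Paralogue groups, the genes of equal number in the 4 clusters, were compared by counts. All 3 genes of group 3 (Hoxa3, Hoxb3 and Hoxd3) had a residual domain. Group 1 had domains on 2 of 3 genes, group 4 on 2 of 4 and group 5 on 2 of 3. Group 8 (3 genes) and group 13 (4 genes) had none. These are small counts, and Hoxb supplies 8 of the 16 Hox genes with a domain, so no order along the clusters was read from them.

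The Hox clusters also hold microRNA genes of the miR-10 and miR-196 families, and paralogous copies fell in different classes. Mir10a lay in the residual domain upstream of Hoxb4, and Mir10b in the intermediate domain at Hoxd4. Mir196a-1 lay in the residual domain of Hoxb9, whereas Mir196a-2 in Hoxc and Mir196b in Hoxa lay in none. The mature miR-10 strands, from RefSeq on GRCm38.p6, show how alike the pair is, with the seed (bases 2 to 8) in capitals.
mmu-miR-10a-5p: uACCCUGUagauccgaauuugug
mmu-miR-10b-5p: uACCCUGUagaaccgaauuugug

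Among the Dlx genes, 2 of 6 had a domain, of different classes. Dlx4 on chromosome 11 had a residual domain of 3.3 kb (95140801 to 95144100) over 60.3% of its coding bases. Dlx5, which patterns jaw and limb, lay wholly inside an intermediate domain of 6.9 kb on chromosome 6 (6877201 to 6884100). Their neighbours in the paired Dlx loci did not share the class, since Dlx3 and Dlx6 had no domain, nor had Dlx1 and Dlx2.

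For Lhx, 3 of 8 genes had a domain, each with a residual one. Lhx1, a gene of the head organizer and kidney, had 86% of its coding bases in a residual domain of 3.3 kb on chromosome 11 (84519001 to 84522300). Lhx2, needed for forebrain and eye, had a residual domain of 4.2 kb over a start (chromosome 2, 38337301 to 38341500) and an intermediate one of 1.8 kb farther in (38366701 to 38368500). The residual one lay outside the window of the longest coding transcript of Lhx2, so its assignment is uncertain. Lhx4, a pituitary gene on chromosome 1, had a slow domain of 3 kb over a start of its long gene model (155751301 to 155754300). A residual one of 4.5 kb lay 1.8 kb away (155745001 to 155749500). Neither lay in the window of the longest coding transcript of Lhx4, so their assignment is uncertain. Neither Lhx2 nor Lhx4 had coding bases of the longest transcript in a domain. Lhx3, Lhx5, Lhx6, Lhx8 and Lhx9 had none.

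For Irx, 3 of 6 genes had a domain. Irx3 and Irx6, in the chromosome 8 cluster, lay on residual domains of 3.3 kb (91798501 to 91801800) and 5.1 kb (92675701 to 92680800), which held 100% and 96.6% of their coding bases. Irx5, in the same cluster, had none within 12.3 kb of its window. Irx4, a gene of the cardiac ventricle on chromosome 13, had an intermediate domain of 4.2 kb over its start (73258501 to 73262700) and a slow one of 1.8 kb that meets its last bases (73269601 to 73271400). Irx1 and Irx2, in that cluster, had none.

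For Nkx, 3 of 14 genes had a domain. Nkx2-1, a factor of thyroid, lung and forebrain, had 94.6% of its coding bases in an intermediate domain of 6.9 kb on chromosome 12 (56528101 to 56535000), with fast domains as its neighbours on both sides. Nkx6-3, a stomach gene on chromosome 8, had 24% in a residual domain of 2.4 kb (23155201 to 23157600). The heart gene Nkx2-5 had none, and its nearest domain, 11.8 kb away, was slow.

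The sole fast domain of the families lay upstream of Six3, a forebrain and eye gene, on chromosome 17 (85609501 to 85613100, 3.6 kb). It ended 508 bp before the first coding transcript start of Six3 and met the gene through the upstream 1 kb alone. The window of the longest coding transcript did not reach the domain, so its assignment is uncertain. The domain also overlapped the noncoding gene Six3os1. Six2, Six4, Six5 and Six6 had no domain. The 150 bases of this domain nearest to Six3 are given, with CpG dinucleotides in capitals, as the edge of the one domain that decayed fast.
Six3 upstream, chr17:85612951-85613100, plus strand: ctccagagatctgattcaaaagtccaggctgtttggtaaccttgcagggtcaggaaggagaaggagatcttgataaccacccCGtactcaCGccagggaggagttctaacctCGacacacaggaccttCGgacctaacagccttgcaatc

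The stretch holds 4 CpG dinucleotides in 150 bases. At the limit of the window, Six3 and Hoxb4 (867 bp) were counted through the upstream kilobase. Irx1, with a domain 177 bp beyond its window, Nkx2-9 (188 bp), Hoxc9 (401 bp) and Nkx1-1 (833 bp) were not.

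Members without a domain often had one close by. Their median distance to the nearest domain was 11.8 kb, against 28.5 kb for the 16607 protein-coding genes without one, and 17 of 51 (33.3%) were within 5 kb, against 12.9%. The distances ran from 177 bp at Irx1 to 192 kb at Six6, and 6 members were farther than 50 kb. The nearest domain was residual for 17 of the 23 Hox genes without one, and for 4 of 28 in the other families, where it was intermediate for 20. The class of the nearest domain was not counted over all protein-coding genes. Neighbouring genes of a cluster share their nearest domain, so these distances and counts are not independent. For the 8 Hoxc genes among the 17, it was the same domain of 1.2 kb.

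Gene length was set beside the counts, in a comparison added after the data were seen, because a long gene has more room for a domain. Homeobox genes are short: 62 of 79 were under 10 kb. Of these 62, 20 had a domain (32.3%), against 9.42% of the 7774 protein-coding genes under 10 kb. Outside chromosomes 8 and 11 it was 8 of 47 short members (17.0%), against 8.25%. A residual domain lay on 14 of the 62 short members (22.6%), against 2.56%. Outside chromosomes 8 and 11 it lay on 2 of 47 (4.26%), against 1.54%, and 2 genes are too few to set that share apart. Of the 5 members of 30 kb or more (Hoxa3, Hoxc5, Hoxd3, Lhx2 and Lhx4), all 5 had a domain, against 45.7% of such genes. A residual domain lay on all 5, against 5.36%. Hoxc5 and Lhx4 had none in the window of their longest coding transcript, and Lhx2 had its intermediate domain there alone.

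**Figure D4:**
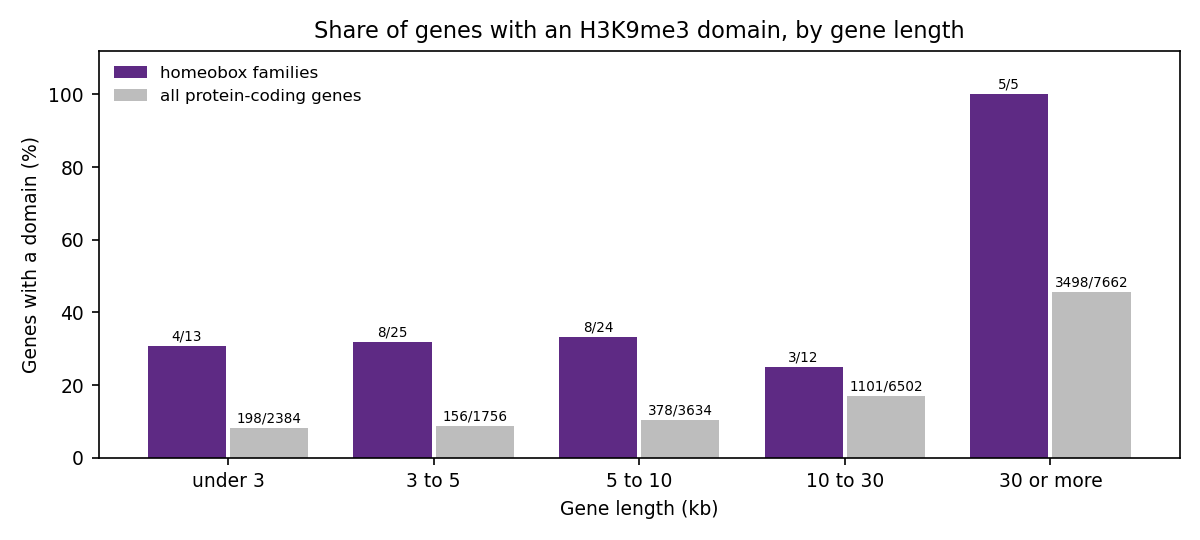
Percentage of genes with an H3K9me3 domain by gene length in kb, for the homeobox families and for all protein-coding genes, with the numbers of genes over the bars. Below 10 kb the homeobox bars stand at 30.8 to 33.3%, against 8.31 to 10.4% for protein-coding genes.

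The place of the domains within the genes was compared next. Of the 32, 23 (71.9%) overlapped a promoter, taken as 1 kb to either side of any coding transcript start, 17 (53.1%) overlapped coding sequence, and 4 overlapped neither a promoter nor an exon. Over the domains on all protein-coding genes the shares were 12.4% for promoters and 24.2% for coding sequence. Much of this difference was absent among short genes. For genes under 10 kb, 80% of the members' 20 domains overlapped a promoter and 70% coding sequence. The shares were 68.0% and 67.6% of the 728 domains on protein-coding genes of that length. For genes of 30 kb or more they were 50% and 25% of the members' 8 domains, against 6.47% and 17.4%. The 21 residual domains of members overlapped a promoter in 71.4% and coding sequence in 52.4%, against 34.7% and 52.3% of the residual domains on all protein-coding genes. The coding share of residual homeobox domains was thus near that of residual domains on genes in general, and the promoter share was higher, without matching for length. The promoter count depended on the gene model: with starts of the longest coding transcript alone it was 15 of 32 (46.9%), against 9.14% on all protein-coding genes and 27.5% for their residual domains. A start of a member lay inside 13 domains.

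Coding cover was large where it occurred. Any coding base lay in a domain in 17 of 79 members (21.5%), against 10.4% of protein-coding genes. In 15 members (19%) it was at least 50% of the coding bases, against 3.35%. These shares were not matched for gene length. All coding bases were covered in 6 members, namely Hoxb1, Hoxb9, Hoxd4, Hoxd12, Dlx5 and Irx3. For 11 members with a domain, none of the coding bases of the longest transcript was covered.

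The homeobox domains lay in unique, repeat-poor DNA in every class. Soft-masked sequence, which marks repeats, made up 4.44 to 19.7% of the 32 domains, with a median of 12.0% in the residual, 8.75% in the intermediate and 6.32% in the slow ones. On all protein-coding genes the medians were 11.9% for residual, 53% for intermediate and 64% for slow domains, and over all domains 17.0%, 72.3% and 74.0%. The residual domains of members were thus like other residual domains on genes in repeat content, and the 6 intermediate and 4 slow ones lay below the medians of their classes. Low repeat content was not particular to the domains. The gene windows of members had a median soft-masked share of 13.2% with a domain and 12.5% without. Unique 31-mers made up 93.3 to 100% of each domain, and 22 of 32 reached 100%, against medians on protein-coding genes of 100% in residual, 66.7% in intermediate and 48.5% in slow domains. The observed over expected CpG ratio had a median of 0.334, against 0.235 for domains on protein-coding genes. It was highest in the Irx3 domain, at 0.775, and lowest in the Hoxa3 domain, at 0.104. Homeobox domains were 1.2 to 14.4 kb wide, with a median of 3.45 kb, and the 21 residual ones had a median of 3.3 kb, against 2.7 kb for residual domains on all protein-coding genes. These are descriptions of the deposited classes, with no test.

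**Figure D5:**
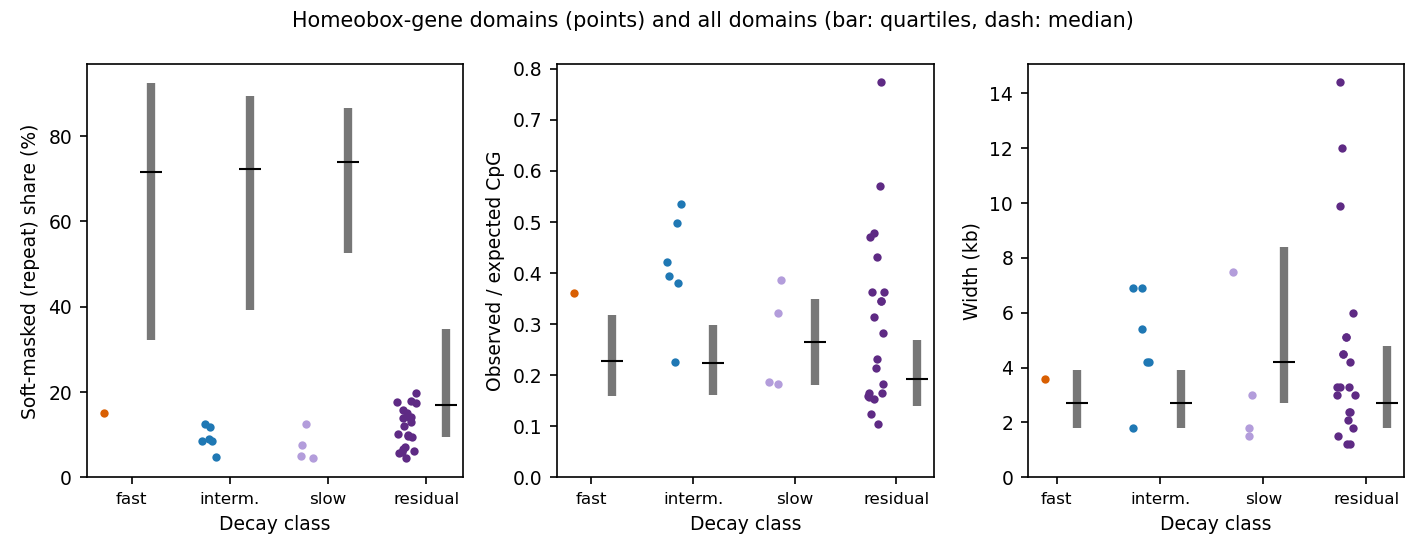
Soft-masked share (percent), observed over expected CpG ratio and width (kb) of the 32 homeobox domains by decay class (points), beside the median and quartiles of all domains of that class (dash and bar). The points for repeat share lie at 4.44 to 19.7% over all classes together. Those of intermediate and slow domains lie under the all-domain medians of 72.3% and 74.0%.

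Base composition was compared between members with and without a domain. The gene window had a median GC content of 53.0% in the 28 with a domain and 52.9% in the 51 without. Its CpG ratio had a median of 0.447 (range 0.277 to 0.733) in members with a domain and 0.532 (0.271 to 0.927) in members without, so the groups overlapped.

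The Pax, Gata and T-box families, other regulators of development, were counted the same way, although they have few genes. Residual domains were 21 of 32 in the homeobox families, against 6 of 9 in Pax, 3 of 4 in Gata and 9 of 11 in T-box genes. A majority of residual domains was thus also found in each of these families. A domain of any class lay on 28 of 79 homeobox members, against 6 of 9 Pax, 3 of 6 Gata and 8 of 16 T-box genes. Over all protein-coding genes it was 24.3%. These counts were not matched for gene length, whose median was 5098 bp in the homeobox members, 55040 bp in Pax, 25884.5 bp in Gata and 15658.5 bp in T-box genes.

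Other homeobox genes and partners of the members were counted from lists. Over all protein-coding genes, 24.3% had a domain and 9.02% of the domains were residual. The lists were not matched for gene length, whose median ran from 6776.5 bp in the other homeobox genes to 212260 bp in the partners of the sine oculis family. Of 56 other homeobox genes, 13 had a domain (23.2%) and 7 of their 14 domains were residual, among them domains at Cdx2, a trophectoderm factor, at Emx1 and Emx2 of the cortex, and at Otx2 of the forebrain. Of 9 TALE genes, whose proteins bind DNA together with Hox proteins, 3 had a domain, and 1 of 7 domains was residual, at Meis1. Of 6 genes for partners of the sine oculis family proteins, Eya2 and Dach2 had a domain, 9 in all, none of them residual. Of 10 genes that work with or resemble LIM homeodomain proteins, 6 had a domain, and the 3 residual ones among 10 domains were all at Lmx1b, a limb and midbrain gene. Polycomb genes had domains in 6 of 31 cases (19.4%), and 2 of their 6 domains were residual.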

How the data were processed

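H3K9me3 ChIP-seq domains of dTKO mouse embryonic stem cells were taken from the authors' deposited table, whose values are a decay class in words per domain on mm10. Per the submitters' processing notes, Bowtie2 2.3.4.1, SAMtools 1.1, deepTools and bedtools were used, and the builds mm10, dm6, mm9 and GRCm38 are named. The sources used here do not say how domains were called, scaled by the Drosophila spike-in and classed. The table has 0 columns of sample values, so depth and spread between repeats are unknown and no test was made. HP1β and input runs were not analysed here.

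Domains were intersected with GENCODE vM21 genes, and base composition, soft-masked share and copies of 31-mers were read from the GRCm38.p6 sequence with Python 3.11.15, numpy 2.4.6, pandas 2.3.3, numba 0.67.0 and Biopython 1.88. Overlap and 31-mer counting were tested on simulated data. Members with a domain are named, except that some items are not reported here. Sequences are of residual domains over the homeodomain core, plus the fast domain and the miR-10 pair, the last chosen after its values were seen. Of the members, 50 matched RefSeq promoter entries, which were not used. The members and gene lists were chosen with earlier results of these data known.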

Additional observations from a re-analysis of the deposited data

How the results depend on the processing

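The share of members with no domain (64.6%) and the share of residual domains (65.6%) were recomputed under other windows, overlaps, domain sizes, gene models and gene sets. Values were judged against a 95% exact binomial interval, which serves as a yardstick alone. Without chromosomes 8 and 11, 75.8% of members had no domain and 38.9% of domains were residual. With genes under 10 kb outside those chromosomes the values were 83.0% and 22.2%, and 44.4% of domains were intermediate and 33.3% slow. Without Hox genes 46.7% were residual. The promoter share was 46.9% with the longest coding transcript alone. The single fast domain was lost with the gene body alone, with an overlap of at least 50%, with the longest transcript's window, with genes under 10 kb and without the sine oculis family. The other 95 of 109 recomputed values stayed within their interval or, for width, within the quartiles; windows of the longest transcript, class shares without Hox genes, gene length and the alternatives for width and for partner lists were chosen after seeing the data. No paired analysis was possible because the table holds no value per sample.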
